A study of Mus musculus with 30 samples.

Results

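The 10 genes described here carry peptide presentation on MHC class I molecules: Nlrc5, the class I transactivator, the heavy chains H2-K1 and H2-D1, the light chain B2m, the peptide transporter subunits Tap1 and Tap2, the loading chaperone Tapbp and the immunoproteasome subunits Psmb8, Psmb9 and Psmb10. They are 10 of the 43629 genes counted by RNA sequencing in bone marrow–derived dendritic cells (BMDCs). They were chosen by their role in class I presentation, with earlier results of these counts already known, so every fold change and adjusted p below describes these cultures and is no independent support for a pattern. All 10 were matched by Ensembl identifier, and all 10 passed the filter on low counts in every comparison.

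BMDCs were grown from bone marrow with GM-CSF for 6 days from wild-type (WT) mice and from mice lacking CACNB3, the β3 subunit of voltage-gated calcium channels, in all tissues (Cacnb3-/-). There were 5 cultures per genotype, each with a library named ctrl, 0p5h and 24h, which gave 30 libraries of 5 per group. ATP at 500 µM was given for 30 min, after which cells were harvested at once or 24 hours (h) later according to the labels, whereas the study's text counts 30 min and 24 h from the pulse, so the delay before the first harvest is not certain. The treatment label of the ctrl libraries reads 30 min of ATP and that of the 0p5h libraries reads vehicle, opposite to the library names, whereas names and labels of the 24h libraries match. The groups are therefore called by the library names, and which of ctrl and 0p5h received no ATP cannot be told from the labels. In the study's methods the WT mice were C57BL/6J and the Cacnb3-/- mice C57BL/6N, so genotype and substrain cannot be told apart, and the mice were adults of both sexes. The labels do not say that the 5 cultures of a group came from separate animals, so p-values between genotypes measure the spread between cultures. In comparisons across sets, fits without a term for culture ignore that the sets share cultures. Fits with that term set the change against its variation from culture to culture.

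Libraries held 8237393 to 32164225 counted reads (median 19556920). Medians were lower in Cacnb3-/- than in WT, at 16202000 against 25364047 in ctrl, 18729574 against 20360908 in 0p5h and 11986891 against 19915605 in 24h. The part of depth in the genotype differences was not tested. Cacnb3 itself was still counted in every Cacnb3-/- library, at 1028 ± 196 CPM (reads per 1e+06 counted reads after library scaling; mean ± SD, n = 5) in ctrl, 964 ± 238 in 0p5h and 973 ± 277 in 24h, against 1260.2 ± 112, 1233 ± 188 and 1669 ± 366 in WT. Its log2 fold change in Cacnb3-/- against WT was -0.27, -0.34 and -0.77 (adjusted p = 0.383, 0.367 and 0.0518, edgeR), and the genotypes overlapped in ctrl and 0p5h and lay just apart in 24h (highest Cacnb3-/- library 1295, lowest WT library 1303 CPM). The count covers all exons of the gene, deleted or not, so it is a weak check and the groups rest on the labels. All 7 dendritic cell markers were detected, with a summed level of 14283 to 31441 CPM in Cacnb3-/- and 18637 to 34280 CPM in WT libraries. Most of that sum came from Cd74, H2-Aa and Ccr7 (medians 12839, 7475 and 3884 CPM over the 30 libraries), of which Cd74 and H2-Aa belong to class II presentation, while Itgax, Flt3, Zbtb46 and Cd86 had medians of 75.5 to 244 CPM, so the sum says little about the share of dendritic cells. Markers of granulocytes and their precursors summed to 39.2 to 239 CPM. T, B and NK cell markers summed to at most 3.69 CPM and erythroid markers to at most 0.257 CPM.

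As background, class I molecules show peptides of cytosolic proteins to CD8 T cells. The immunoproteasome, in which Psmb8, Psmb9 and Psmb10 replace the constitutive catalytic subunits Psmb5, Psmb6 and Psmb7, cuts proteins into peptides, the Tap1–Tap2 heterodimer moves the peptides into the endoplasmic reticulum, Tapbp (tapasin) bridges the transporter to a waiting heavy chain, and B2m completes the complex. Nlrc5 is an interferon-inducible NLR family protein that does not bind DNA by itself. It joins RFX, CREB/ATF and NF-Y proteins at the SXY module of class I promoters, where RFX occupies the X1 box, CREB/ATF the X2 box and NF-Y the Y box, an inverted CCAAT sequence, and its relative Ciita does the same at class II promoters.

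Most of these genes lie together. In GRCm38, the build of the count table, Tapbp (chr17:33915899-33929288), H2-K1 (chr17:33996017-34000333), Psmb9 (chr17:34181988-34187764), Tap1 (chr17:34187553-34197225), Psmb8 (chr17:34197721-34201454), Tap2 (chr17:34203527-34216321) and H2-D1 (chr17:35262730-35267499) sit in the major histocompatibility complex. Nlrc5 (chr8:94472763-94527272) and Psmb10 (chr8:105935728-105938392) are on chromosome 8 and B2m (chr2:122147686-122153083) on chromosome 2. The gene models of Psmb9 and Tap1 overlap at their 5′ ends on opposite strands and no strand option was set in counting, so reads there cannot be assigned to either. H2-K1 and H2-D1 are close paralogs and reads could be exchanged between them, so their separate levels are uncertain.

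Promoter windows of RefSeq (GRCm38.p6; 250 bases before to 50 bases after the start, 32817 windows in all) were at hand for 8 of the 10 members, the exceptions being Nlrc5 and Tap2. Both strands were searched for TGACG, the CREB core of the X2 box, CCAAT, the core of the Y box, AANNGAAA, the core bound by IRF proteins, and GGGATTCC, a κB core. In the stretches shown none of these 4 motifs overlapped another. For H2-K1 (chr17:34000348-34000597, minus strand), H2-D1 (chr17:35262844-35263093, plus strand) and B2m (chr2:122147437-122147686, plus strand), 20 bases separate TGACG from an inverted CCAAT. Their 250 bases up to the start are shown because the products of these genes form the complex. The other boxes of the SXY module were not searched for. The stretch between the starts of Psmb9 and Tap1 (chr17:34187331-34187555, plus strand, 225 bases) is shown because a pair of members shares it in opposite directions. Capitals mark the 4 motifs.
H2-K1: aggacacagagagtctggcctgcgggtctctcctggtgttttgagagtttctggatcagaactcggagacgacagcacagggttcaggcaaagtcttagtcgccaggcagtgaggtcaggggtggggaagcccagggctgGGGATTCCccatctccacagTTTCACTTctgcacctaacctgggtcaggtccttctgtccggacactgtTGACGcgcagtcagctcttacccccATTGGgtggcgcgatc
H2-D1: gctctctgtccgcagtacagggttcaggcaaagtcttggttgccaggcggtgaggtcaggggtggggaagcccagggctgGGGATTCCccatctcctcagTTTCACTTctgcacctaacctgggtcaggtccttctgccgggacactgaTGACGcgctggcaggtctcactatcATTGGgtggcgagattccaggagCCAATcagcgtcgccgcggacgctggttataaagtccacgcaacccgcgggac
B2m: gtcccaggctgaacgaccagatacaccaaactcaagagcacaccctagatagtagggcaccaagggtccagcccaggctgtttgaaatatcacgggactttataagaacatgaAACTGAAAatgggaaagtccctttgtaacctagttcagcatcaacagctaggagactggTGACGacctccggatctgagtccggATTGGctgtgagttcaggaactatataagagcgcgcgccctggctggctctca
Tap1 and Psmb9: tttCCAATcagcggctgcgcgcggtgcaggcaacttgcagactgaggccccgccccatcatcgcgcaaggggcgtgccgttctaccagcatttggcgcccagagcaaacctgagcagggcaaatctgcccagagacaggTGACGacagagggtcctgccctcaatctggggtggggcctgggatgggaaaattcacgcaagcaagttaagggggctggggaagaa

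In H2-K1, H2-D1 and B2m a TGACG was followed by ATTGG, the CCAAT box read on the other strand, with exactly 20 bases between them. Only 31 of the 32817 windows held that arrangement (0.0945%), and 143 (0.436%) held it with 15 to 25 bases between, while TGACG alone was in 20.8% and CCAAT alone in 37.4%. The H2-K1 and H2-D1 promoters also shared GGGATTCC (in 1.06% of windows) and AANNGAAA (in 23.9%), and B2m had the latter. The stretch between Psmb9 and Tap1 held TGACG and CCAAT without this spacing, Tapbp held 2 CCAAT boxes, and Psmb8 and Psmb10 held none of the 4 motifs. The letters and the spacing were chosen with these sequences in view, and a match describes the letters, not binding.

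Per length of exon, the levels spanned a wide range in these cells. Over the 30 libraries B2m had a median of 4384 CPM per kb (2799 to 6572), higher than 99.9% of genes, and its lowest library was above the highest of any other member. H2-D1 followed at 1508 (956 to 2218) and H2-K1 at 1495 (948 to 2209), whose ranges overlapped almost wholly. Tapbp was at 212 (141 to 305), Psmb10 at 166 (126 to 250), Psmb8 at 113 (82.6 to 226), Psmb9 at 76.8 (51.1 to 133), Tap1 at 45.0 (29.4 to 98.2) and Tap2 at 35.1 CPM per kb (24.99 to 52.2), each range overlapping that of its neighbours in this order. Nlrc5 was the lowest member without overlap, at 4.99 CPM per kb (1.76 to 8.42), above 52.2% of genes and below Ciita at 13.96. The constitutive subunits Psmb7, Psmb6 and Psmb5 stood at 78.4, 70.8 and 42.4 CPM per kb, and the non-classical heavy chains H2-T23, H2-Q7 and H2-M3 at 186, 48.8 and 40.3.

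**Figure D1:**
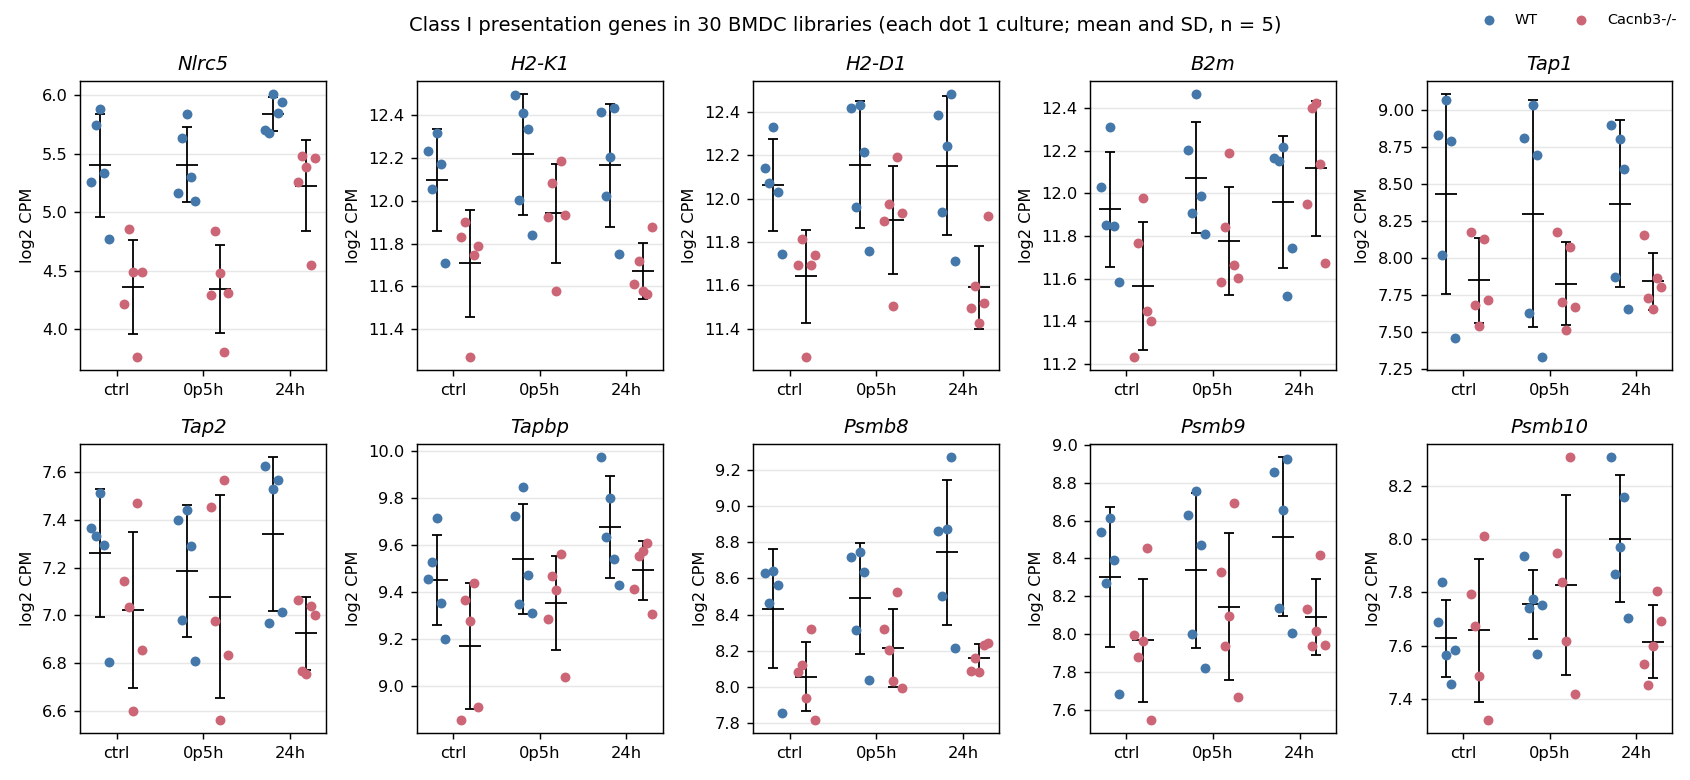
Level of each of the 10 genes as log2 CPM (vertical axes, a log scale with its own range per gene) in the 6 groups of 5 libraries; points are libraries, and bars the mean of log2 CPM with SD. The mean of Nlrc5 was lower in Cacnb3-/- than in WT in every set (21.1 against 43.7 CPM in ctrl and 38.4 against 57.4 CPM in 24h), and its libraries overlapped in ctrl and not in 0p5h or 24h, while the other 9 genes overlapped between genotypes in every set.

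Nlrc5 was the 1 member whose libraries did not overlap between genotypes in 0p5h and in 24h, and it was lower in Cacnb3-/-. In ctrl, the 5 WT cultures gave 38.2, 53.7, 59.0, 40.4 and 27.2 CPM (cultures labelled s846, s850, s855, s856 and s864) and the 5 Cacnb3-/- cultures 18.5, 28.9, 22.4, 13.5 and 22.3 CPM (cultures s843, s851, s852, s853 and s865). In 0p5h the same WT cultures gave 35.8, 49.6, 57.1, 39.4 and 34.1 CPM and the Cacnb3-/- cultures 19.5, 28.5, 22.3, 13.8 and 19.8 CPM. In 24h they gave 52.1, 51.0, 64.4, 57.7 and 61.5 CPM in WT and 38.2, 44.5, 41.7, 23.3 and 44.1 CPM in Cacnb3-/-. The groups overlapped in ctrl through a single pair of cultures, WT s864 at 27.2 and Cacnb3-/- s851 at 28.9, and did not overlap in 0p5h or 24h, where all 5 Cacnb3-/- libraries were below all 5 WT libraries. Such a complete separation was seen in 1.13% of tested genes in 0p5h and 3.79% in 24h, and in 1.27% in ctrl. Averaged over its 3 libraries, a WT culture held 40.9 to 60.2 CPM of Nlrc5 and a Cacnb3-/- culture 16.9 to 33.98 CPM, without overlap, as in 2.5% of the 13755 genes compared, whereas the culture means of the other 9 members overlapped.

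The log2 fold change of Nlrc5 in Cacnb3-/- against WT was -1.03 ± 0.23 (SE) in ctrl, -1.04 ± 0.20 in 0p5h and -0.57 ± 0.17 in 24h, that is 0.490, 0.486 and 0.675 of the WT level. None passed the threshold with edgeR's quasi-likelihood test (adjusted p = 0.243, 0.251 and 0.0518). No gene at all was called between genotypes at an adjusted p under 0.05 with a 2-fold change, 0% in ctrl, 0% in 0p5h and 0% in 24h, although 2161, 2103 and 4877 genes had an unadjusted p under 0.05. DESeq2 called 146 genes in ctrl (1.02%), 83 in 0p5h (0.611%) and 637 in 24h (4.48%). Of the members, it called Nlrc5 alone, in ctrl (-1.04 ± 0.25, adjusted p = 0.00781) and in 0p5h (-1.05 ± 0.22, adjusted p = 0.0076). Without WT culture s864, edgeR also called Nlrc5 in ctrl (-1.16, adjusted p = 0.0195), in a fit that called 249 of 13277 genes. Leaving out any other single culture changed no such call, the estimates in ctrl running from -1.18 to -0.90.

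The heavy chains were lower in Cacnb3-/- in mean and overlapped in range. H2-K1 was at 4806, 4252, 5102, 4607 and 3350.0 CPM in WT and 3647, 3824, 2471, 3441 and 3532 CPM in Cacnb3-/- ctrl libraries, in the culture order above. In 24h it was at 5459.7, 4151, 4718, 5524 and 3449.8 CPM in WT and 3133, 3365, 3060.1, 3029.8 and 3766 CPM in Cacnb3-/-. In both sets WT culture s864 was the lowest WT culture and lay within the Cacnb3-/- range. H2-D1 had the same shape, with 24h values of 5347, 3922, 4849, 5719 and 3351 CPM in WT and 2886, 3096, 2749.6, 2928 and 3868 CPM in Cacnb3-/-. In 0p5h, H2-K1 spanned 3662 to 5759.8 CPM in WT and 3057 to 4660.0 CPM in Cacnb3-/-. The log2 fold changes in ctrl, 0p5h and 24h were -0.36 ± 0.18, -0.27 ± 0.18 and -0.50 ± 0.17 for H2-K1 (adjusted p = 0.319, 0.467 and 0.0663). Those of H2-D1 were -0.40 ± 0.17, -0.25 ± 0.19 and -0.57 ± 0.19 (adjusted p = 0.277, 0.505 and 0.0609). Their log2 CPM had a correlation of 0.98 over the 30 libraries.

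B2m, the light chain of both, was lower in mean in Cacnb3-/- in ctrl and higher in 24h. In ctrl the WT cultures gave 4184, 3696, 5085, 3689.8 and 3068 CPM and the Cacnb3-/- cultures 2407, 3485, 4037, 2795 and 2704 CPM. In 24h the values were 4593, 4545, 4764, 2935 and 3431 CPM in WT and 3952, 5406, 5495, 4508 and 3269 CPM in Cacnb3-/-. The Cacnb3-/- mean was thus below WT in ctrl (3086 ± 662 against 3945 ± 751 CPM) and above it in 24h (4526 ± 952 against 4054 ± 818), with overlap in both. The log2 fold changes were -0.33 ± 0.20, -0.28 ± 0.19 and 0.17 ± 0.20 (adjusted p = 0.4, 0.452 and 0.554), and B2m was the 1 member above 0 in 24h.

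The peptide transporter and tapasin overlapped between genotypes throughout. Tap1 was at 455, 259, 538, 443 and 176 CPM in WT and 289.6, 206, 186, 279.5 and 210.4 CPM in Cacnb3-/- ctrl libraries. The WT cultures lay apart from each other for Tap1, with s846, s855 and s856 above every Cacnb3-/- culture, s850 within their range and s864 below it. The same order held for the means over the 3 libraries of a culture, at 460, 503 and 416 CPM, 230 CPM and 180 CPM, against 191 to 288 CPM in Cacnb3-/-. Its SD on the log2 scale in WT was larger than that of 89.0% of genes in ctrl, 91.7% in 0p5h and 81.7% in 24h. The Tap1 log2 fold changes were -0.65 ± 0.27, -0.58 ± 0.30 and -0.58 ± 0.23 (adjusted p = 0.278, 0.348 and 0.0914). Tap2, the partner subunit, ranged from 112 to 197 CPM in WT and 94.5 to 189 CPM in Cacnb3-/- libraries, and Tapbp from 589 to 1006 and from 463 to 781 CPM. The log2 fold changes of Tap2 were -0.21 ± 0.17, -0.06 ± 0.20 and -0.42 ± 0.16 (adjusted p = 0.539, 0.898 and 0.0791), and those of Tapbp -0.25 ± 0.16, -0.18 ± 0.15 and -0.18 ± 0.14 (adjusted p = 0.423, 0.564 and 0.349).

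Among the immunoproteasome subunits, Psmb8 (LMP7) held the lowest adjusted p of the members in 24h. It was at 465, 362, 468, 617 and 298 CPM in WT and 272, 286, 271, 300.3 and 303 CPM in Cacnb3-/-, so only WT culture s864 reached into the Cacnb3-/- range. That Cacnb3-/- spread was narrow, with an SD smaller than that of all but 1.2% of genes. The log2 fold changes of Psmb8 were -0.37 ± 0.16, -0.27 ± 0.16 and -0.61 ± 0.18 (adjusted p = 0.286, 0.416 and 0.0516). Psmb9 (LMP2) spanned 206 to 485 CPM in WT libraries and 187 to 414 CPM in those of Cacnb3-/-, and its fold changes were -0.31 ± 0.20, -0.18 ± 0.23 and -0.45 ± 0.20 (adjusted p = 0.427, 0.708 and 0.114). Psmb10 (MECL-1) spanned 176 to 317 CPM in WT libraries and 159.8 to 317 CPM in those of Cacnb3-/-. It was the 1 member above 0 in ctrl and 0p5h, at 0.07 ± 0.14 and 0.12 ± 0.16, and was at -0.38 ± 0.14 in 24h (adjusted p = 0.827, 0.734 and 0.073).

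**Figure D2:**
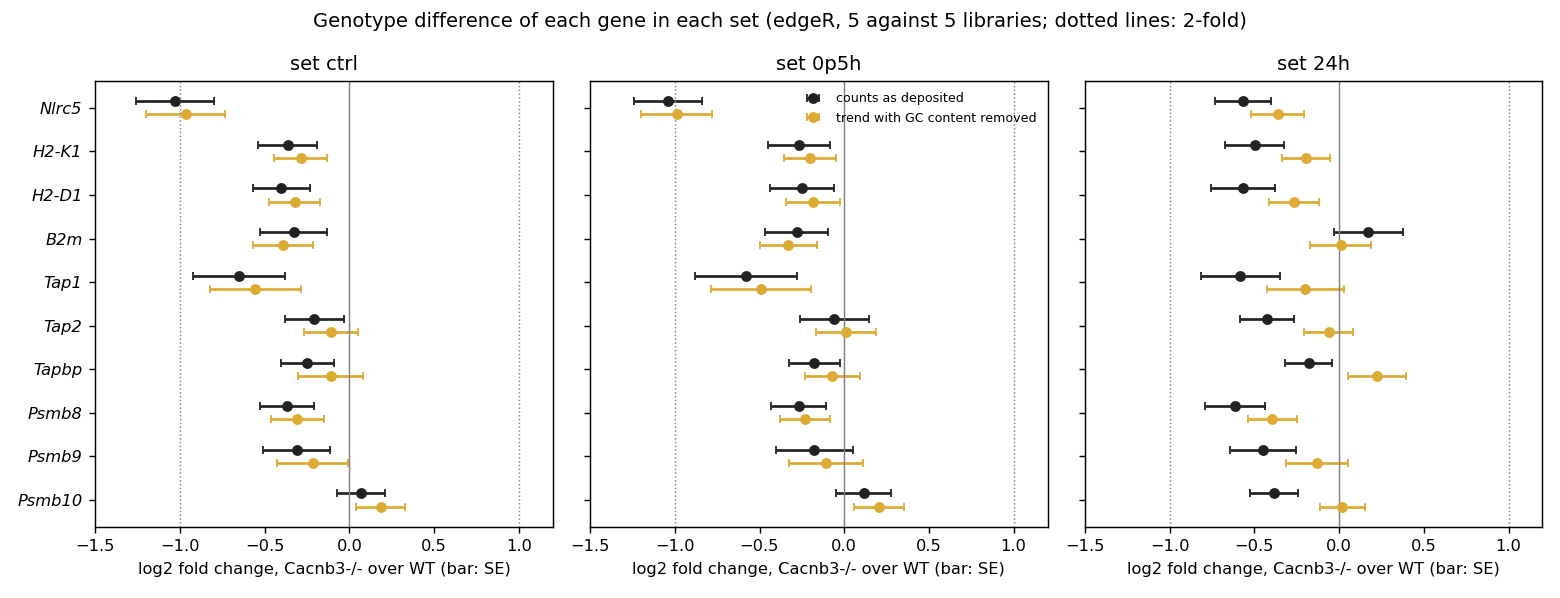
Log2 fold change in Cacnb3-/- against WT with SE for each of the 10 genes (horizontal axis, 1 panel per set), from the edgeR fit as it stands and after removal of the trend with GC content. In each set 9 of the 10 genes lie below 0 in the fit as it stands; without the GC trend the 24h values of all but B2m lie further up the scale, Nlrc5 at -0.36 in place of -0.57 and Tapbp at 0.22 in place of -0.18.

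As a group, 9 of 10 members were below 0 in each set, with a median log2 fold change of -0.35 in ctrl, -0.26 in 0p5h and -0.47 in 24h, against 0.03, 0.02 and 0.01 over all genes tested. In 24h DESeq2 gave 5 members an adjusted p under 0.05, each with less than a 2-fold change, Nlrc5 (0.018), H2-K1 (0.0148), H2-D1 (0.0149), Psmb8 (0.0144) and Psmb10 (0.0387), beside 22.6% of all genes it tested at any fold. With edgeR, leaving out WT culture s864 gave 6 members an adjusted p of 0.0377 to 0.0468 (H2-K1, H2-D1, Tap1, Tap2, Psmb8 and Psmb10) beside 2389 of 12781 genes at any fold, and leaving out Cacnb3-/- culture s865 gave 4 (Nlrc5, H2-K1, H2-D1 and Psmb8) beside 4513 of 12785 genes. The 24h differences also moved with GC content. The transcripts of 9 members, all but B2m at 46.4%, had a GC content above the median of 49.4% of genes kept. A trend with GC content was fitted in each library to log2 CPM, taken relative to the mean of each gene, and was removed. The median of the members in 24h was then -0.16 and 7 of 10 were below 0. Psmb8 was at -0.39, Nlrc5 at -0.36, H2-D1 at -0.27, H2-K1 at -0.20 and Tap1 at -0.20. In ctrl and 0p5h the median was then -0.30 and -0.19, with Nlrc5 at -0.96 and -0.99. Tap2 in 0p5h, at 0.01, and Tapbp and Psmb10 in 24h, at 0.22 and 0.02, changed sign. The origin of the GC trend was not tested.

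Medians of other quantities differed between the genotypes too, with overlapping ranges. In 24h the dendritic cell markers, a sum mostly of Cd74, H2-Aa and Ccr7, had a median of 15880 CPM in Cacnb3-/- (14283 to 23898) and 27283 CPM in WT (18637 to 30834). The 6 macrophage markers summed to 529 (393 to 709) against 426 CPM (222 to 610). In ctrl the dendritic cell sums were 20453 (15492 to 26690.5) against 26354 CPM (22770 to 33462). The macrophage sums were 616 (437 to 678) against 359 CPM (200 to 685). In 0p5h the dendritic cell sums were 25513 (18900 to 31441) against 30217 CPM (23887 to 34280). The macrophage sums in 0p5h were 718 (332 to 728) against 408 CPM (238 to 691). Their part in the members' differences was not tested, and in bulk RNA fewer cells of a kind and less RNA per cell cannot be told apart. Sequencing lanes were also unequal, lane 1 holding 3 Cacnb3-/- and 7 WT libraries and lane 3 holding 7 and 3. With lane in the model Nlrc5 was at -1.02, -1.02 and -0.53 (adjusted p = 0.229, 0.271 and 0.108).

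From ctrl or 0p5h to 24h, Nlrc5 was higher in most cultures of both genotypes. In Cacnb3-/- the ratio of 24h to ctrl was 1.54 to 2.06 and that of 24h to 0p5h 1.56 to 2.23, above 1 in 5 of 5 cultures each time. In WT the ratio to ctrl was 0.95 to 2.26, above 1 in 4 of 5 cultures, and that to 0p5h was 1.03 to 1.80, above 1 in 5 of 5. The share of all genes that rose or fell in all 5 cultures was not counted. Such counts, here and below, are therefore not shown to be particular to a member. Between ctrl and 0p5h, Nlrc5 was at -0.01 in WT and -0.03 in Cacnb3-/- on the log2 scale.

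Against 0p5h, the 24h log2 fold change of Nlrc5 was 0.90 ± 0.21 in Cacnb3-/- (adjusted p = 0.078) and 0.41 ± 0.15 in WT (adjusted p = 0.301). Libraries of 1 culture deviated together, and with the culture as a block the same changes passed, at 0.90 ± 0.10 in Cacnb3-/- (adjusted p = 0.000205) and 0.43 ± 0.11 in WT (adjusted p = 0.0404), both under 2-fold. The Cacnb3-/- value passed without each culture in turn, whereas the WT value was lost without culture s846, s855, s856 or s864 (adjusted p = 0.0595 to 0.145). The blocked fit gave an adjusted p under 0.05 to 28.6% of all genes in Cacnb3-/- and 11.3% in WT. With block and GC trend removal together, Nlrc5 in Cacnb3-/- was called, at 1.02 ± 0.08 (adjusted p = 2.36e-05), among 2.21% of genes. Against ctrl the changes were 0.86 ± 0.22 in Cacnb3-/- (adjusted p = 0.417) and 0.40 ± 0.18 in WT (adjusted p = 0.592). DESeq2 without a block gave Nlrc5 in Cacnb3-/- an adjusted p under 0.05 against ctrl, beside 66 genes in all, and against 0p5h, beside 458. In neither was Nlrc5 called at the 2-fold limit, and in WT it did not pass with that fit.

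**Figure D3:**
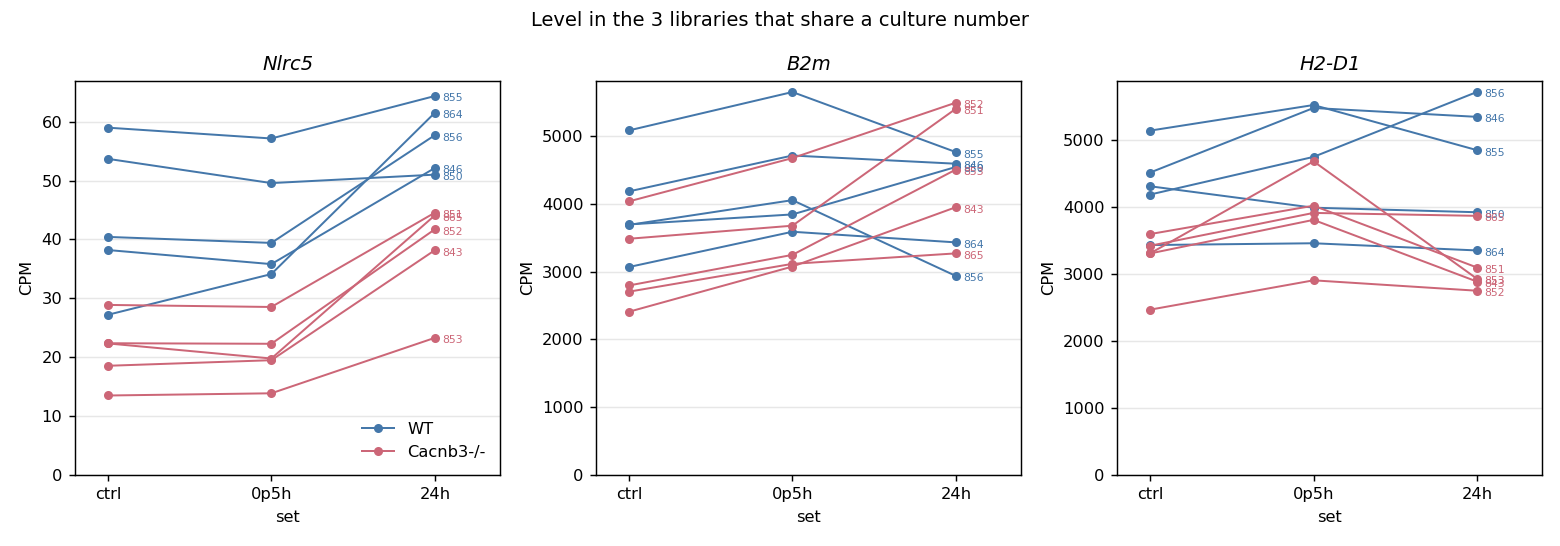
Nlrc5, B2m and H2-D1 in CPM (vertical axes, linear) over the sets ctrl, 0p5h and 24h, 1 line per culture, WT and Cacnb3-/- in separate colours. Nlrc5 lines of all 5 Cacnb3-/- cultures end higher in 24h than in 0p5h, B2m lines of the same cultures also end higher, and H2-D1 lines of all 5 end lower than in 0p5h.

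B2m, the light chain, was higher in 24h in all 5 Cacnb3-/- cultures, by 1.21 to 1.64 times against ctrl and 1.05 to 1.47 times against 0p5h. The log2 fold change against 0p5h was 0.36 ± 0.20 (adjusted p = 0.345), and with culture as a block 0.35 ± 0.10 (adjusted p = 0.026), a value lost without culture s843, s851 or s853 (adjusted p = 0.0763 to 0.124). In WT B2m was at 0.05 against ctrl and -0.10 against 0p5h. H2-D1 in Cacnb3-/- was at -0.30 against 0p5h (adjusted p = 0.349), with 0 of 5 cultures above it. In this comparison 6 of the 10 members were below 0, with a median of -0.06. With the GC trend removed 2 were below 0, with a median of 0.10. Tapbp was higher in 24h than in ctrl in 5 of 5 cultures of each genotype, at 0.30 in Cacnb3-/- and 0.24 in WT (adjusted p = 0.444 and 0.658).

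Without a block, 0 of the 10 members were called between any pair of sets. The share of all genes called was 0.176% for 0p5h against ctrl, 0.0152% for 24h against ctrl and 0.639% for 24h against 0p5h in WT, and 0.29%, 0% and 0.66% in Cacnb3-/-. In the last-but-one of these, 24h against ctrl in Cacnb3-/-, DESeq2 called 48 genes, and in edgeR the unadjusted p was under 0.05 for 1343. Over the members, 24h against ctrl had a median of 0.17 in WT, with 9 of 10 above 0, and 0.04 in Cacnb3-/-, with 5 of 10 above 0. After GC trend removal all 10 were above 0 in Cacnb3-/-, with a median of 0.21.

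Whether these changes differed between genotypes was tested with the interaction of genotype and set. The interaction of Nlrc5 was 0.47 ± 0.29 from ctrl to 24h (adjusted p = 0.753) and 0.48 ± 0.27 from 0p5h to 24h (adjusted p = 0.68), a larger rise in Cacnb3-/- that did not pass the test. That of B2m was 0.51 and 0.46 (adjusted p = 0.753 and 0.68). No gene was called in any of the 3 interactions by edgeR (0%, 0% and 0%) or by DESeq2, at unadjusted p under 0.05 for 30 genes from ctrl to 0p5h, 658 from ctrl to 24h and 789 from 0p5h to 24h. With culture as a block the interaction of B2m from 0p5h to 24h was 0.46 (adjusted p = 0.108 with edgeR and 0.0402 with DESeq2). That DESeq2 fit gave 752 genes an adjusted p under 0.05 and called 54 at 2-fold, so its value for B2m is not particular to this gene.

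Correlations among the members ranged widely. Log2 CPM of Nlrc5 over the 30 libraries, which include 3 from each culture, had a Pearson correlation of 0.55 with Tapbp, 0.54 with B2m, 0.53 with Psmb8, 0.43 with H2-K1 and H2-D1, 0.39 with Tap1, 0.29 with Psmb9, 0.20 with Tap2 and -0.00 with Psmb10. Psmb8 and Psmb9 were at 0.91 with each other and Tap1 and Tap2 at 0.83. H2-K1 and its light chain B2m were at only 0.15, and B2m and Tapbp at 0.75. The 5 genes most like Nlrc5 were Cpne2 (0.89), Slc22a15 (0.88), Fdps (0.86), Vcam1 (0.86) and Nsun4 (0.85), of 13754 compared, whose median correlation was -0.01. These values are descriptions, since libraries share cultures and genotype.

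**Figure D4:**
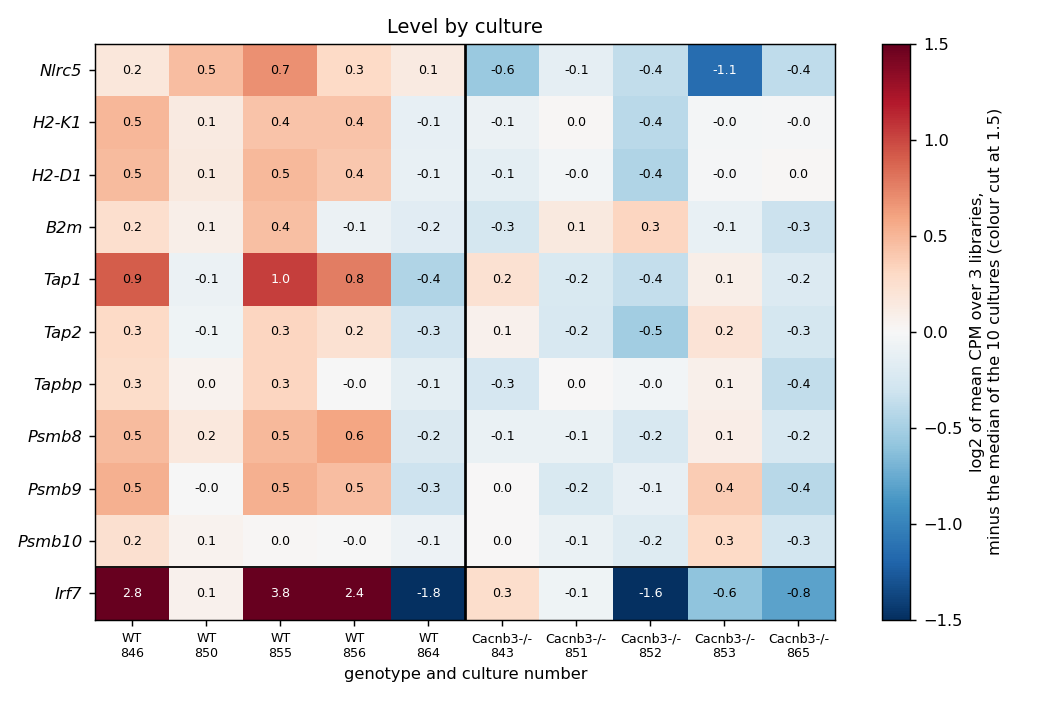
Each cell is the log2 of a culture's mean CPM over its 3 libraries minus the median of the 10 cultures, for the 10 genes and Irf7 (rows) in the 5 WT and 5 Cacnb3-/- cultures (columns). WT cultures s846, s855 and s856 stand highest for Tap1 (460, 503 and 416 CPM) and for Irf7 (173, 330 and 128 CPM), and all 5 WT cultures stand above the 5 Cacnb3-/- cultures for Nlrc5.

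By culture mean, WT cultures s846, s855 and s856 stood highest not for Tap1 alone but also for H2-K1, H2-D1, Tap2, Psmb8 and Psmb9. They did not do so for Nlrc5, B2m, Tapbp or Psmb10. The split of the WT cultures for Tap1 recurred in Irf7. This gene, an interferon-induced transcription factor named here after its values were seen, averaged 173, 330 and 128 CPM in WT cultures s846, s855 and s856, 25.4 in s850 and 6.89 in s864, and 7.88 to 29.02 CPM in Cacnb3-/- cultures. Its log2 fold change in Cacnb3-/- against WT was -3.81, -3.50 and -1.97 (adjusted p = 0.243, 0.251 and 0.0722). Its log2 CPM had a correlation of 0.90 with Tap1, 0.81 with Psmb8, 0.77 with H2-K1, 0.64 with Nlrc5 and 0.23 with Psmb10.

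Genes around the members were read from fixed lists. Of 24 other class I and class I-like heavy chains, 18 were tested and 0 called in Cacnb3-/- against WT, with 14, 14 and 13 below 0 and a median log2 fold change of -0.42 in ctrl, -0.30 in 0p5h and -0.31 in 24h (-0.17 after GC trend removal). H2-T23, the Qa-1 heavy chain, was at -0.57 (adjusted p = 0.0515), H2-Q7, a Qa-2 heavy chain, at -0.75 (adjusted p = 0.0518) and H2-M3, which presents formylated peptides, at -0.21 in 24h. The 8 loading and trimming genes had medians of -0.18, -0.16 and -0.15, with the chaperone Calr at -0.27 and the trimming peptidase Erap1 at 0.14 in 24h. The 7 constitutive proteasome genes had medians of -0.09, -0.09 and -0.28, with Psmb5, Psmb6 and Psmb7 at -0.40, -0.45 and -0.28 and the activator subunit Psme1 at -0.38 in 24h. None of these genes was called.

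The factors that act with Nlrc5 or upstream of it were counted too, with 0 called. The 8 RFX, CREB/ATF and NF-Y genes had medians of -0.01, -0.01 and -0.08, with the X-box factor Rfx5 at -0.41, -0.25 and -0.20. The 14 interferon signalling genes had medians of -0.31, -0.22 and -0.19. Irf1, an interferon-induced activator of class I genes, was at -0.30, -0.13 and -0.23. Of the 15 interferon-stimulated genes, 14, 15 and 14 were below 0, with medians of -1.64, -1.52 and -0.63, and 0 were called.

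In 24h against ctrl all 15 interferon-stimulated genes were above 0 in both genotypes, with medians of 0.36 in WT and 1.44 in Cacnb3-/-. Against 0p5h in Cacnb3-/-, Ifit1, an RNA-binding antiviral protein, rose by 2.81 (adjusted p = 0.0469) and Irgm1, an immunity-related GTPase, by 1.33 (adjusted p = 0.0162). The 9 class II genes were the counterpart, with medians of -0.36, -0.20 and -0.46 in Cacnb3-/- against WT and Ciita at -0.90, -0.95 and -1.34 (adjusted p = 0.249, 0.262 and 0.0576). DESeq2 called Ciita in 24h (-1.36, adjusted p = 0.016). All 9 were below 0 in 24h against ctrl and against 0p5h, comparisons that share the 24h libraries, in both genotypes, and H2-Ob, a class II-like chain that limits peptide loading, fell by 1.59 in WT against 0p5h (adjusted p = 0.027). Ciita was at -0.33 in WT and -0.77 in Cacnb3-/- in 24h against ctrl (adjusted p = 0.822 and 0.448), where Nlrc5 was at 0.40 and 0.86.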

How the data were processed

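RNA of 30 BMDC libraries, 10 cultures with 3 libraries each, was analysed at the gene level. The authors deposited 1 table of raw read counts, which its header traces to featureCounts 1.5.1, the exons of GRCm38 in Ensembl release 79 and alignments of read 1, with no option for strand, multiple alignments or overlapping genes. The submitters' processing notes name STAR 2.4, DESeq2 and mm10, whereas the paper gives GRCm39, read pairs and another sequencer than the labels. Symbols were matched for 38984 of 43629 identifiers (89.4%).

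Each comparison was fitted across all genes kept by filterByExpr with edgeR 4.0.16 (R 4.3.3, limma 3.58.1), TMM scaling and the quasi-likelihood test, on the libraries of the groups compared. Calls needed a change of 2-fold or more and an adjusted p (Benjamini-Hochberg) under 0.05. CPM were computed from TMM-scaled library sizes, and log2 CPM with a prior count of 2. Some of the fits were also run on simulated counts. These held no effect of culture and did not include the GC trend removal, so they say nothing about libraries that share a culture. The members gave 210 or more reads in every library, so counting error is small beside the spread between cultures.

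The alternatives were DESeq2 1.42.0, its size factors, no filter, all 30 libraries in 1 fit, removal of the trend with GC content (lowess, span 0.3, GC known for 98.8% of kept genes), each culture left out, and a replicate block by culture number. Sequencing lane as a covariate, and cultures left out within the block, were added after seeing the data. Same-numbered libraries of a genotype deviated together (29 of 30 pairs had a correlation over 0.1, median 0.609 over 13755 genes, against -0.219 for other numbers), so the block applies except to ctrl against 24h in Cacnb3-/-, where 1 pair was at 0.0746.

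The members and lists were chosen with earlier results of these data known. Values are given for all 10 members, for 12 further pathway genes and for any listed gene that was called, and 1 more gene of that rule is not reported here. Irf7, Cd74 and Ccr7 and the motif letters were singled out after values or sequences were seen. Authors' comparisons were not used.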

Additional observations from a re-analysis of the deposited data

Results flagged for a closer look

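Within each group of 5 cultures, the highest and the lowest value of each member were compared with the next one, 60 groups in all. By Dixon's criterion (gap over range above 0.71) 3 stood apart. Chance gives about 1 in 20, so 3 flags in 60 groups are no more than chance gives. The flags of H2-K1 and H2-D1 are also not separate, as these genes had a correlation of 0.98. H2-K1 and H2-D1 were both lowest in the ctrl library of Cacnb3-/- culture s852, at 2471 CPM with the next culture at 3441 and at 2466 CPM with the next at 3306. Psmb8 was lowest in the ctrl library of WT culture s864, at 232 CPM, with the next WT culture at 352. Culture s864 was also the lowest WT culture for Nlrc5 and Tap1 in ctrl, at 27.2 and 176 CPM, and it was the culture without which edgeR called Nlrc5 in ctrl. None of the 30 interaction tests of members passed.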

How the results depend on the processing

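In the fit as written 0 members were called in every comparison. The count became 1 (Nlrc5) with DESeq2 in Cacnb3-/- against WT, 1 in ctrl and 1 in 0p5h, and 1 (Nlrc5) for 24h against 0p5h in Cacnb3-/- with the replicate block and GC trend removed. Over the fits that left out 1 culture it was 0 to 1 in ctrl, with 1 without culture s864. The other 257 counts stayed at 0. Among the single fold changes followed, 795 kept their direction and their side of the threshold, 60 passed it anew and 27 changed sign. These do not cover every member in every comparison. With the GC trend removed, members below 0 went from 5 to 0 for 24h against ctrl in Cacnb3-/-. For 24h against 0p5h they went from 6 to 2 in Cacnb3-/- and from 2 to 4 in WT. For the interaction from ctrl to 24h they went from 6 to 2.

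The cause of the sign changes was not tested. With the GC trend removed, Tapbp and Psmb10 in 24h became 0.22 and 0.020, and Tap2 in 0p5h became 0.012. Nlrc5 in 0p5h against ctrl in WT, at -0.01 in the fit as written, became 0.0013 with the GC trend removed, 0.0081 with lane, 0.010 with the replicate block, 0.014 with block and GC trend removal and 0.013 with DESeq2 and block. Without 1 culture it ran from -0.060 to 0.017 in WT, from -0.058 to 0.012 in Cacnb3-/- and from -0.042 to 0.035 for the interaction of ctrl with 0p5h. With the replicate block and 1 culture left out, the values above 0 were 0.029, 0.031, 0.019 and 0.010 in WT, 0.017 in Cacnb3-/- and 0.038 and 0.0081 for the interaction. B2m in 24h against ctrl in WT ran from -0.016 to 0.12 without 1 culture, and was at -0.022 without culture s850 in the blocked fit. Without 1 culture, Cacnb3-/- against WT ran from -0.20 to 0.047 for Tap2 in 0p5h, from -0.035 to 0.14 for Psmb10 in ctrl and from -0.026 to 0.21 for Psmb10 in 0p5h.

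For 24h against ctrl in Cacnb3-/-, where 1 pair of libraries of a culture did not deviate together, the replicate block gave Nlrc5 0.87 (adjusted p = 0.00398, and 0.000268 to 0.0323 with each culture left out) and B2m 0.55 (adjusted p = 0.0245, and 0.00485 to 0.13 with each culture left out). With all cultures that fit gave 1063 of 12452 genes an adjusted p under 0.05 at any fold. In the same comparison Tapbp, at 0.30 in the fit as written, was at 0.32 with the block (adjusted p = 0.0784). It was at 0.56 with block and GC trend removal (adjusted p = 0.032, beside 633 of 12452 genes under 0.05). With DESeq2 and block it was at 0.33 (adjusted p = 0.0368, beside 1630 genes). The block alone changed no call of a member at the 2-fold limit. It raised the genes called in WT from 23 to 76 (0p5h against ctrl), 2 to 122 (24h against ctrl) and 82 to 228 (24h against 0p5h), in Cacnb3-/- from 37 to 82, 0 to 138 and 84 to 367, and in the interactions from 0 to 16 (ctrl to 24h) and 0 to 1 (0p5h to 24h). In Cacnb3-/- against WT in 24h, where 0 genes were called, 376 were called without the filter on low counts and 615 with all 30 libraries in 1 fit. The fit of all 30 libraries held no term for culture, so the 3 libraries of a culture entered as if independent. Median depth was lower in Cacnb3-/- than in WT libraries in each set, and the lowest count of any member in any library was 210 reads.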
